A study of Mus musculus with 6 samples.

Results

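The respiratory chain passes electrons from NADH and succinate to oxygen through complexes I to IV of the inner mitochondrial membrane, and ATP synthase, also called complex V, uses the resulting proton gradient to make ATP. Most of the protein subunits of these machines are encoded in the nucleus, and assembly factors that are not part of the finished complexes put them together with a small set of subunits encoded by mitochondrial DNA. In macrophages, respiration supports resting and repair functions, and inflammatory activation is known to shift energy production towards glycolysis.

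The genes described here were taken by name alone: every probe of the array whose gene name begins with the stems of the nuclear subunits (Ndufa, Ndufb, Ndufc, Ndufs, Ndufv, Uqcr, Cox4i, Cox5, Cox6, Cox7, Cox8, Atp5) or is Sdha, Sdhb, Sdhc, Sdhd or Cyc1. The rule found 90 genes with 126 probes among 55681 probes on the array. Of these, 86 genes with 122 probes passed the filter, being well above background on all 3 control or all 3 ADP arrays, and are called measured, among 19575 features in all. The name rule placed 36 genes in complex I, 4 in complex II, 9 in complex III, 19 in complex IV and 15 in complex V. The other 7 genes carry a subunit's stem but encode assembly or accessory proteins: Ndufaf1 to Ndufaf4, which build complex I, Cox7a2l, which joins complexes into supercomplexes, and Atp5s and Atp5sl, whose current symbols are Dmac2l and Dmac2. Ndufa4 and Ndufa4l2 bear complex I names and were counted with complex IV, where the Ndufa4 protein is found. The 4 genes that did not pass the filter were Cox7b2, Cox8b and Cox8c, with a probe well above background on 0 of the 6 arrays, and Ndufa4l2, whose probe was well above background on 1 array, control 3.

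The cells were macrophages grown from bone marrow of C57BL/6 mice for 7 days in medium with 10% serum and 20% medium conditioned by L929 cells, which supplies the growth factor M-CSF. In the BMDM_ADP group they received 100 µM ADP, a nucleotide released from damaged and activated cells, for 6 h, and the BMDM_CON group was the control at 6 h; both groups shared strain, tissue and culture. Each group held 3 samples, which the submitters describe as independent experiments with different donors, and the total RNA of each was labelled with Cy3 and read on its own one-colour array. The question was how extracellular ADP alters macrophage transcripts. A level is the log2 signal relative to the 75th percentile of its array, a difference is ADP minus control on that scale, and levels of different probes are not compared. Errors written as ± are SDs of 3 arrays for levels and standard errors of the limma fit for differences.

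On each array between 50.3% and 51.9% of spots were well above background, and no spot was saturated. All 8 macrophage markers checked were measured, as were 6 of 7 fibroblast and stromal markers (all but Lum), 5 of 7 neutrophil and 3 of 6 dendritic cell markers on the array, 3 of 8 lymphocyte, 1 of 5 erythroid and 1 of 5 muscle markers. The 6 arrays came from 2 slides, with controls 1 and 2 and ADP 1 on slide 1 and control 3, ADP 2 and ADP 3 on slide 2. As both slides held both groups, differences were fitted without a block and with the slide as a block. The labels state no model, and the fit without a block was chosen here as the main one. Whether the slides also divide the donors is not stated, so slide and donor cannot be told apart.

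Factors known to act on promoters of respiratory genes include NRF1, factors of the ETS family such as GABP, and YY1. Promoters of 74 of the 90 genes were found in a RefSeq table of assembly GRCm38.p6, which holds 250 bases before and 50 after each start. Both strands of every promoter of a gene were searched for 5 fixed strings, a match being a description of letters and not of a bound site. The NRF1 string GCATGCGC stood in 11 of the 74 genes (14.9%) and in 3.05% of all 27025 genes of the table. The ETS string CCGGAAG stood in 17 of them (23.0%, against 9.93% of all), the YY1 string AAGATGGC in 11 (14.9%, against 3.19%), and the string ACGTG, the core bound by hypoxia-inducible factors, in 20 (27.0%, against 21.8%). The TATA string TATAAA stood in 7 (9.46%, against 15.7%). Any of the first 3 strings stood in 44.6% of the member genes and in 14.9% of all genes.

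The 250 bases before the start are shown for the gene highest above its control, Ndufaf1, for Atp5sl, which had the next smallest p and lay below its control, and for the structural subunit gene Cox6a1, whose promoter holds both an NRF1 and an ETS string. Each runs 5′ to 3′ on the gene's strand, and capitals mark matches to the 5 strings on either strand.
Ndufaf1, chr2:119662835-119663084, minus strand: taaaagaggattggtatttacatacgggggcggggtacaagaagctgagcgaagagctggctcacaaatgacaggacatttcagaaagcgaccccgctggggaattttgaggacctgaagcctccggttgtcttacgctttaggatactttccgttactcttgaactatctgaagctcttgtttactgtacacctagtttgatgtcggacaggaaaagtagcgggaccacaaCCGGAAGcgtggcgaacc
Atp5sl, chr7:25619164-25619413, plus strand: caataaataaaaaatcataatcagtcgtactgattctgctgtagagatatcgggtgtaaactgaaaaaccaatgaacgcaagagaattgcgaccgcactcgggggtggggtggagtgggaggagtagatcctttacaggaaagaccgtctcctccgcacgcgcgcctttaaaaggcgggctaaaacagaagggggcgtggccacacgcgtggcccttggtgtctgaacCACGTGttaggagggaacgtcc
Cox6a1, chr5:115348959-115349208, minus strand: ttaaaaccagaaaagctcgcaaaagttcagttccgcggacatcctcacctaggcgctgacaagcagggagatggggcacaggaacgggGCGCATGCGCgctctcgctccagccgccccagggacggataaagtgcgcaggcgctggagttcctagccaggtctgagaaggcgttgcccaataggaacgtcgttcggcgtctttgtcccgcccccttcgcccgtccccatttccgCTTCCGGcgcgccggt
The capitals are an ETS string 18 to 12 bases before the start of Ndufaf1, overlapping ACGTG strings on both strands before Atp5sl, and, before the start of Cox6a1, NRF1 strings on both strands that overlap between 162 and 153 bases and an ETS string at 16 to 10 bases. Atp5sl has a second start in the table, further downstream, and the bases before that start also hold a YY1 string. Among measured genes, members that hold a string lay close to those that lack it: with the slide as a block the median ADP difference was 0.06 in the 17 genes with the ETS string and 0.05 in the 55 without it, 0.05 in the 11 with the YY1 string and 0.06 in the 61 without it, and 0.00 in the 11 with the NRF1 string and 0.06 in the 61 without it.

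Among the genes taken by name, no structural subunit of complexes I to V passed the test between ADP and control macrophages. The members with the smallest p encode assembly or accessory proteins. None of the 86 members, and none of the 19575 features (0%), had an adjusted p under 0.05 by limma with Benjamini-Hochberg adjustment, and the smallest adjusted p among the members was 0.26. At an unadjusted p under 0.05, 2 members of 86 stood out (2.33%), against 12.7% of all features (1282 higher and 1210 lower) and 5.46% of the features in the brightest 10% by level, which held 54 of the 86 members. These were Ndufaf1, higher with ADP (6.55% of all features were so called and higher), and Atp5sl, lower (6.18%). With the slide as a block, 3 members had an unadjusted p under 0.05 (3.49%), namely these and Ndufaf3, and no structural subunit among the members did. The share was 24.3% of all features and 14.5% of the features in the brightest 10%. Subunits outside the name rule, such as Usmg5 and mt-Nd6, and a second probe of Ndufb2 are given further below. Trended and robust variances on top of the slide block brought the count to 6 (6.98%, against 26.1% of all features), adding Ndufa5, Sdhd and Cox6c, all higher. Without control 3 and without a block it was 7 (8.14%, against 13.2%), adding Ndufa9, Ndufv2, Cox6b1, Atp5g1 and Atp5s, and without ADP 1 it was 5 (5.81%, against 15.2%), adding Uqcrq, Atp5g3 and Atp5l. Without a block, leaving out control 1 or ADP 3 left Ndufaf1 alone. Both larger counts came from sets in which 1 group was left on a single slide.

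The intervals bound how large a difference could have been missed. With the slide as a block, the 95% intervals, which were not widened for the number of genes, lay within 0.5 log2, or 1.41-fold, of no difference for all 79 structural subunits measured. The lowest bound was -0.45, for Cox6b2, and the highest 0.45, for Ndufv2. Such an interval was found for 59.2% of all features and for 86.6% of the features in the brightest 10%. Without a block, 55 of the 79 had an interval within 0.5 log2 and 78 had one within 1 log2, the exception being Atp5o. Under the slide block, leaving out 1 array at a time left between 70 and 78 of the 79 within 0.5 log2, the fewest without control 3.

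**Figure D1:**
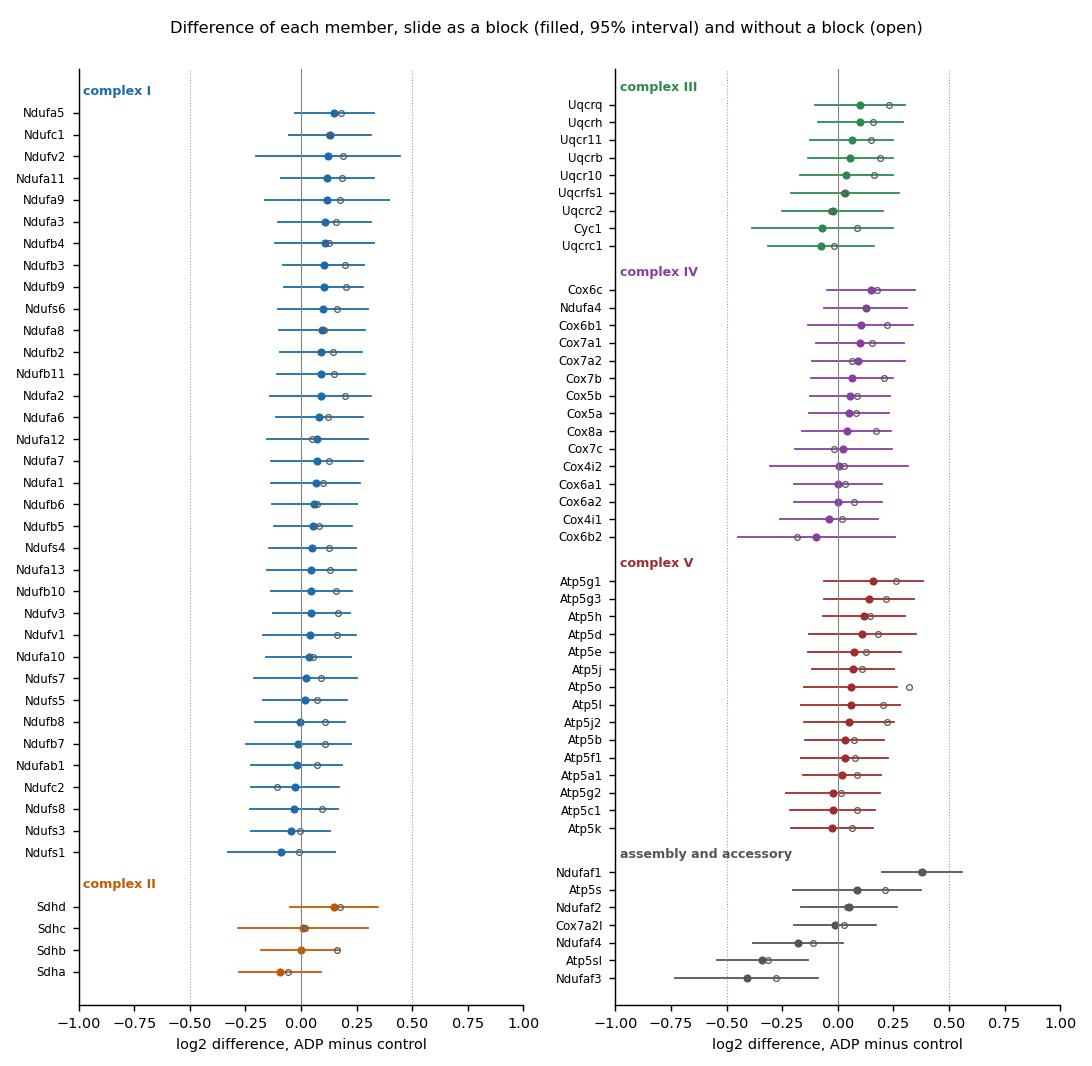
The log2 difference, ADP minus control, is plotted for 85 of the 86 measured members, grouped by complex, with filled points and 95% intervals from the fit with the slide as a block and open points from the fit without one. All 78 structural subunits plotted have intervals between the dotted lines at -0.5 and 0.5, and the intervals of Ndufaf1, Atp5sl and Ndufaf3 do not include 0.

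Most members lay slightly above control without a block. Of the 75 above 0, 39 exceeded it by more than their standard error, 3 members lay below 0 by more than theirs, and 2 differed by more than 2 standard errors. Such counts are not given for all features, so these have no background to be read against. The median difference of the 86 was 0.11, with 75 of them above 0, against a median of 0.00 and 50.8% above 0 over all features. With the slide as a block the median was 0.05, with 64 above 0, against -0.01 and 48.3% for all features. Within slide 1 it was 0.08, with 67 above 0, and within slide 2 it was 0.03, with 49 above 0. Setting an array to another percentile moves all its features alike: with the slide as a block and each array set to its median in place of its 75th percentile, the members' median was -0.018 with 32 of 86 above 0, and the median of all features was -0.08. Under both scalings the members' median lay 0.06 above that of all features. Signs also differed between the slides, since 46 of the 86 members had the same sign on both, against 62.0% of all features. Leaving out 1 array moved the median without a block from 0.11 to between 0.07 and 0.18, the highest without control 3.

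The groups of 8 members did not overlap (9.30%), against 19.4% of all features and 12.9% of the features in the brightest 10%. Above control on all arrays (9.67% of all features) were 7 members, Ndufaf1, Ndufa5, Ndufc1, Sdhd, Cox6c, Ndufa4 and Atp5h, and below it (9.72%) was Atp5sl.

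The slide went with a larger difference than ADP in most of these genes. In the fit with both terms, the size of the slide difference exceeded that of the ADP difference in 70 of the 86, and in 60 after quantile normalization. This count is not given for all features. In the same fit an unadjusted p under 0.05 by limma was reached for the slide by 40.7% of members and 38.2% of all features. For ADP the shares were 3.49% and 24.3%. The median of the members' levels, each taken relative to that gene's mean over the 6 arrays, was -0.11, -0.13 and 0.08 on controls 1 to 3 and -0.05, 0.07 and 0.14 on ADP 1 to 3. Every array of slide 1 was therefore below 0 and every array of slide 2 above it, in both groups. ADP 3 was the highest array for 48 of the 86 members and control 3 for 22. In 56 members (65.1%), against 22.3% of all features, all arrays of slide 2 lay above all arrays of slide 1.

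**Figure D2:**
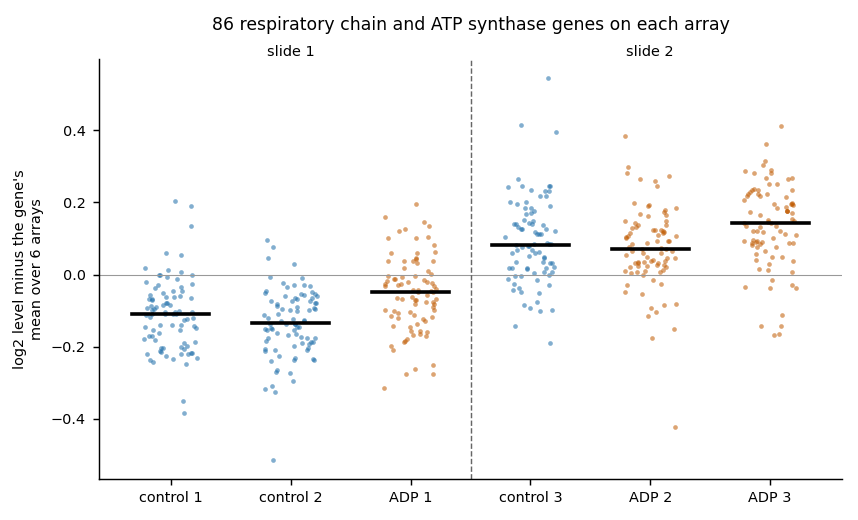
Each point is 1 of the 86 measured members on 1 array, as its log2 level minus its own mean over the 6 arrays, with arrays ordered by slide, blue for control and orange for ADP, and bars at the medians. The medians of the 3 slide 1 arrays lie at -0.13 to -0.05 and those of the 3 slide 2 arrays at 0.07 to 0.14, so that control 3 sits with the ADP arrays of its slide.

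In that fit, the median difference of slide 2 from slide 1 was 0.17 for the members and 0.05 for all features, and 76 members were higher on slide 2. An adjusted p under 0.05 for the slide was reached by 17 members, all higher on slide 2 (19.8% of 86, against 13.5% of all features), and by no member in the other direction. The direction over the members depended on the scaling: their median slide difference was 0.43 in the unscaled table, 0.30 with median scaling and -0.00 after quantile normalization, where 43 of 86 were above 0 and the median ADP difference was 0.04. The median size of the slide difference after quantile normalization was 0.12, beside 0.06 for ADP. Features of the brightest 10% as a whole had a median slide difference of 0.19, and the 54 members among them 0.18. Atp5o, the subunit that links the stalk of ATP synthase to its catalytic head, showed the largest slide difference of a member. Its level was 3.84, 3.71 and 4.64 on controls 1 to 3 and 3.91, 4.61 and 4.64 on ADP 1 to 3, so the slide 2 arrays of both groups were alike and stood above the slide 1 arrays. Its difference from control was 0.32 ± 0.31 without a block and 0.06 ± 0.08 with the slide as a block, where its slide difference was 0.79 ± 0.08.

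**Figure D3:**
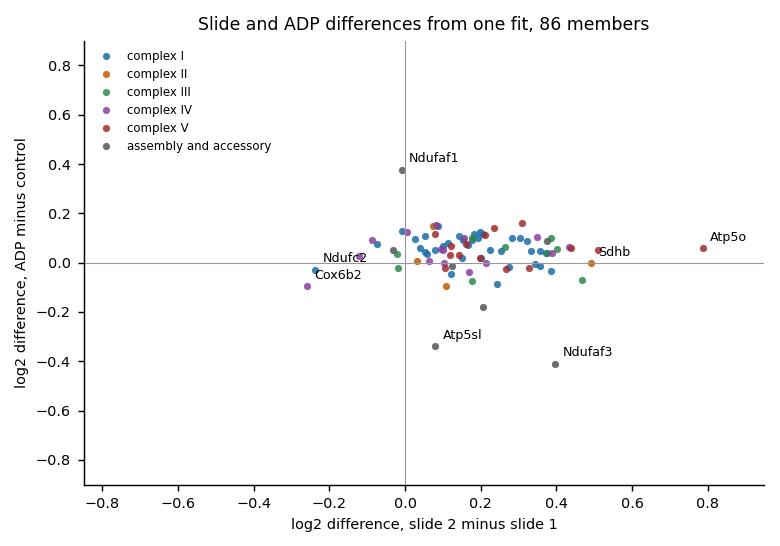
For each of the 86 measured members the horizontal axis gives the log2 difference of slide 2 from slide 1 and the vertical axis that of ADP from control, both from the fit with the slide as a block, coloured by complex. Points spread further along the slide axis, up to 0.79 for Atp5o, than along the ADP axis, where all members but Ndufaf1, Atp5sl and Ndufaf3 lie between -0.18 and 0.16.

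Probes of a gene lay closer together in the ADP difference than in the slide difference. Of the measured members, 26 had between 2 and 6 kept probes, 62 in all. Under the slide block, the gap between the highest and the lowest ADP difference among a gene's probes had a median of 0.05 and a maximum of 0.18, whereas the gap in the slide difference had a median of 0.29 and a maximum of 0.74. The slide gap was the larger in 25 of the 26 genes, against 3568 (72.9%) of all 4897 genes with several probes, whose median gaps were 0.14 for ADP and 0.31 for the slide. Both probes of Atp5h, a subunit of the peripheral stalk, gave close ADP differences, 0.12 and 0.10, beside slide differences of 0.08 and 0.82. The 6 probes of Atp5l, subunit g of the membrane part, gave ADP differences of 0.06 to 0.17 and slide differences of -0.17 to 0.44. The probes of Atp5c1, the central shaft, differed in the direction of the slide, at 0.33 and -0.27, while their ADP differences were -0.02 and 0.02. Probes differed in the sign of the slide difference in 8 genes (30.8%, against 47.3% of all genes with several probes) and in that of the ADP difference in 7 (26.9%, against 32.3%), namely Atp5c1, Cox8a, Ndufaf4, Ndufb11, Ndufb5, Sdhc and Uqcrq. The widest of the latter gaps was that of Ndufaf4, -0.18 against 0.00.

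**Figure D4:**
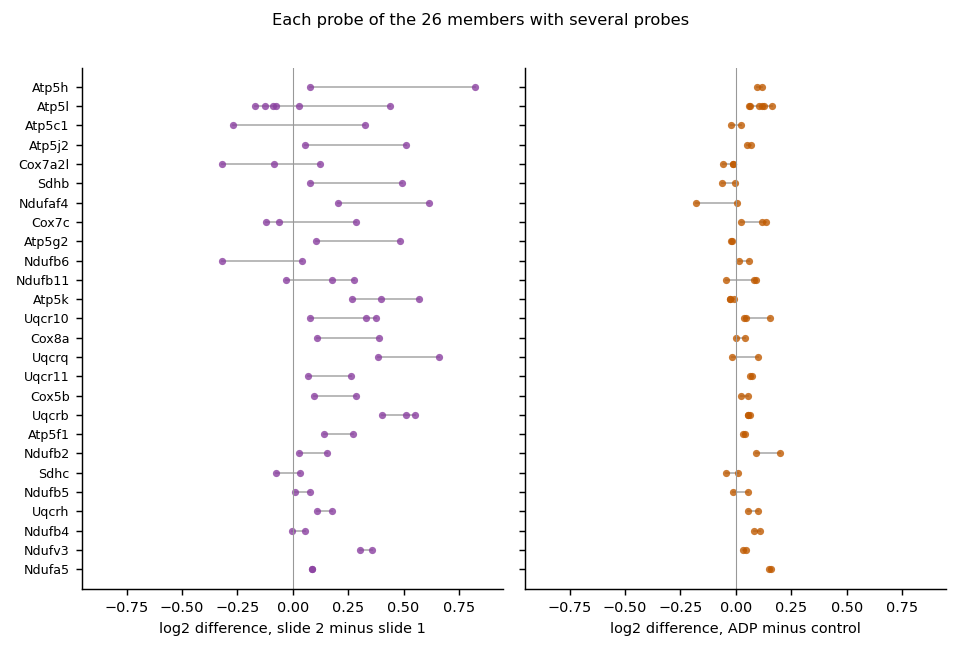
Every kept probe of the 26 members with several probes is a point, with genes in rows ordered by the spread of their slide differences, the log2 difference of slide 2 from slide 1 on the left and of ADP from control on the right, both from 1 fit. Probes of a gene lie up to 0.74 apart on the left (Atp5h) and at most 0.18 apart on the right (Ndufaf4).

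Complex I oxidises NADH and passes its electrons to ubiquinone. Its 36 genes were all measured; 33 lay above control without a block and 29 with the slide as a block, with medians of 0.13 and 0.06, and none had an unadjusted p under 0.05 in either fit. Ndufa5, an accessory subunit of the arm that projects into the matrix, read 5.41, 5.35 and 5.44 on controls 1 to 3 and 5.51, 5.61 and 5.63 on ADP 1 to 3. All ADP arrays lay above all controls, by 0.18 ± 0.10 (unadjusted p = 0.11 by limma), and by 0.13 within slide 1 and 0.17 within slide 2. A second probe of Ndufa5 gave 0.16 ± 0.09 with the slide as a block, beside 0.15 ± 0.07 for the first.

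Ndufa11, an accessory subunit of the membrane arm, read 3.43, 3.47 and 3.66 on the controls and 3.57, 3.68 and 3.86 on the ADP arrays, a difference of 0.19 ± 0.13. Control 3 lay above ADP 1, so the groups overlapped, while the difference was 0.12 within each slide. Ndufb3, another membrane arm subunit, read 4.50, 4.54 and 4.85 on the controls and 4.67, 4.89 and 4.91 on the ADP arrays, and control 3 again exceeded ADP 1. Ndufc1 read 5.43, 5.40 and 5.37 on the controls and 5.50, 5.50 and 5.57 on the ADP arrays; the groups did not overlap, and the difference was 0.13 ± 0.09.

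The complex I genes below control without a block were Ndufc2, Ndufs1 and Ndufs3, none by more than its error. Ndufc2, a membrane arm subunit, read 5.83, 5.78 and 5.65 on the controls and 5.86, 5.52 and 5.56 on the ADP arrays, with the slide 1 arrays of both groups on top; its difference was -0.11 ± 0.13, and -0.03 ± 0.08 with the slide as a block. Ndufs1, the largest iron-sulphur subunit, read 4.77, 4.72 and 5.14 on the controls and 4.81, 4.88 and 4.92 on the ADP arrays. Its difference was 0.06 within slide 1 and -0.24 within slide 2, where control 3 was the highest array. Ndufs3, a core subunit of the matrix arm, read 5.52, 5.49 and 5.62 on the controls and 5.46, 5.55 and 5.61 on the ADP arrays, a difference of -0.01 ± 0.10.

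Complex II, succinate dehydrogenase, is also an enzyme of the citric acid cycle, and all of its subunits are nuclear. Sdhd, one of its membrane anchors, read 5.42, 5.42 and 5.53 on controls 1 to 3 and 5.61, 5.58 and 5.71 on ADP 1 to 3. The ADP arrays lay above all controls by 0.17 ± 0.10 (unadjusted p = 0.13 by limma), and by 0.19 and 0.11 within slides 1 and 2. The other anchor, Sdhc, read 4.40, 4.51 and 4.70 on the controls and 4.67, 4.47 and 4.53 on the ADP arrays, with opposite signs in the slides, 0.21 and -0.20. The probe that represents Sdhb, the iron-sulphur subunit, followed the slide. It read 6.34, 6.30 and 6.81 on the controls and 6.31, 6.82 and 6.80 on the ADP arrays. Its difference was 0.16 ± 0.20 without a block and -0.00 ± 0.07 with the slide as a block. A second probe of Sdhb had a slide difference of 0.08 ± 0.09, beside 0.49 ± 0.07 for the first. Sdha, the flavoprotein that oxidises succinate, read 5.20, 5.14 and 5.32 on the controls and 5.11, 5.22 and 5.15 on the ADP arrays, a difference of -0.06 ± 0.10.

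Complex III passes electrons from ubiquinol to cytochrome c, and 7 of its 9 genes lay above control without a block and 6 with the slide as a block. Uqcrq, a small subunit that binds near the ubiquinone site, read 6.28, 6.29 and 6.57 on the controls and 6.29, 6.76 and 6.78 on the ADP arrays, so that ADP 1 matched the controls of its slide; the difference was 0.23 ± 0.17 without a block and 0.10 ± 0.08 with it. Uqcrh, the hinge protein that contacts cytochrome c1, read 6.83, 6.82 and 7.02 on the controls and 6.95, 7.04 and 7.17 on the ADP arrays, with differences of 0.12 and 0.08 within the slides. Uqcr11 read 5.80, 5.82 and 6.05 on the controls and 5.85, 6.09 and 6.19 on the ADP arrays. The core proteins gave the members below control. Uqcrc1 read 3.88, 3.80 and 4.16 on the controls and 3.91, 3.91 and 3.98 on the ADP arrays, and Uqcrc2 read 4.99, 4.92 and 5.06 on the controls and 5.06, 4.88 and 4.94 on the ADP arrays. Their differences were -0.02 ± 0.12 and -0.03 ± 0.10, and for both the difference was above 0 within slide 1 (0.07 and 0.10) and below 0 within slide 2 (-0.22 and -0.15).

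Complex IV, cytochrome c oxidase, reduces oxygen, and several of its subunits exist as isoforms that are known to differ between tissues. The 15 measured genes had a median difference of 0.08 without a block and 0.05 with the slide as a block. Cox6c read 6.14, 6.16 and 6.14 on controls 1 to 3 and 6.21, 6.39 and 6.38 on ADP 1 to 3, and all ADP arrays lay above the controls by 0.18 ± 0.10 (unadjusted p = 0.12 by limma). Its difference was 0.06 within slide 1 and 0.24 within slide 2. Ndufa4 read 4.93, 4.94 and 4.91 on the controls and 5.03, 5.01 and 5.11 on the ADP arrays, without overlap, with a difference of 0.13 ± 0.09. Cox7c, below control by -0.02 ± 0.11, read 5.32, 5.25 and 5.23 on the controls and 5.38, 5.11 and 5.26 on the ADP arrays.

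Of the alternative isoforms, those widely used among tissues were measured for every subunit, and of the rarer ones Cox4i2, Cox6a2, Cox6b2 and Cox7a1 were well above background on all 6 arrays while Cox8b, Cox8c and Ndufa4l2 did not pass the filter. Cox4i1 read 7.81, 7.82 and 8.04 on the controls and 7.83, 7.85 and 8.04 on the ADP arrays, and its hypoxia-linked counterpart Cox4i2 read -1.90, -2.10 and -1.80 on the controls and -1.86, -1.80 and -2.07 on the ADP arrays. Neither differed from control by more than its error (0.02 ± 0.12 and 0.03 ± 0.13). Cox6a1 read 8.62, 8.62 and 8.65 on the controls and 8.55, 8.67 and 8.77 on the ADP arrays, and Cox6a2, the form known from heart and skeletal muscle, read 0.71, 0.64 and 0.93 and then 0.72, 0.83 and 0.95. Under the slide block both differences were 0.00 ± 0.08 in size.

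Cox6b1 read 3.79, 3.70 and 4.21 on the controls and 3.96, 4.13 and 4.26 on the ADP arrays, with a difference of 0.22 within slide 1 and -0.01 within slide 2. Cox6b2, known from testis, read -0.93, -1.04 and -1.17 on the controls and -1.0, -1.56 and -1.12 on the ADP arrays, with ADP 2 lowest and a difference of -0.18 ± 0.17. Cox7a1, another muscle form, read 1.61, 1.56 and 1.75 on the controls and 1.69, 1.77 and 1.91 on the ADP arrays, and Cox7a2 read 5.65, 5.59 and 5.46 and then 5.64, 5.57 and 5.68. Their differences, 0.15 ± 0.11 and 0.06 ± 0.10, were within 1.5 standard errors of 0. The probe that represents Cox8a read 7.51, 7.5 and 7.94 on the controls and 7.59, 7.86 and 8.0 on the ADP arrays, following the slide. Its difference was 0.04 ± 0.08 once the slide was a block. A second probe of Cox8a had a slide difference of 0.11 ± 0.10, beside 0.39 ± 0.08 for the first.

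In ATP synthase all 15 genes lay above control without a block and 12 with the slide as a block, with medians of 0.13 and 0.06. The 3 genes Atp5g1, Atp5g2 and Atp5g3 encode the same mature subunit c of the rotating ring, behind different targeting peptides. Atp5g1 read 5.81, 5.70 and 6.18 on the controls and 6.03, 6.20 and 6.25 on the ADP arrays, and differed by 0.26 ± 0.15 (unadjusted p = 0.13 by limma), or by 0.27 within slide 1 and 0.05 within slide 2. Atp5g3 read 6.40, 6.39 and 6.59 on the controls and 6.49, 6.84 and 6.70 on the ADP arrays, with differences of 0.10 and 0.18 within the slides. Atp5g2 read 7.5, 7.5 and 7.68 on the controls and 7.55, 7.51 and 7.66 on the ADP arrays, a difference of 0.01 ± 0.11. The 95% intervals of these 3 genes overlapped with the slide as a block. Atp5h, with the probe that moved least with the slide, read 6.54, 6.56 and 6.67 on the controls and 6.71, 6.71 and 6.78 on the ADP arrays, without overlap, and differed by 0.14 ± 0.10.

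With the slide as a block, the 3 members furthest from control were the assembly and accessory genes Ndufaf3, Ndufaf1 and Atp5sl; without one, Atp5o (0.32) lay between Ndufaf1 and Atp5sl in size. Ndufaf1 encodes a chaperone of the complex that assembles the membrane arm of complex I. Its probe lies on mm9 at chr2:119481208-119481267. It read 1.63, 1.67 and 1.65 on controls 1 to 3 and 2.03, 1.99 and 2.06 on ADP 1 to 3. The groups stood clear of each other by far more than their spread, with means of 1.65 ± 0.02 and 2.02 ± 0.04 (SD, n = 3 each). The difference was 0.37 ± 0.09, or 1.30-fold, and was 0.38 within slide 1 and 0.37 within slide 2, with a slide difference of -0.01. By limma the unadjusted p was 0.0055 and the adjusted p 0.26 without a block, and the adjusted p was 0.073 with the slide as a block. With trended and robust variances added to the slide block it was 0.023, in a fit that called 1939 features (9.91%). With normexp background correction and the slide block it was 0.036, in a fit that called 1254 of 19575 features.

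Atp5sl encodes a protein related to the ATP synthase coupling factor B and, under the symbol Dmac2, is known as a factor of complex I membrane arm assembly. Its probe lies on mm9 at chr7:26410510-26410569. It read 3.28, 3.13 and 3.32 on the controls and 2.90, 2.97 and 2.92 on the ADP arrays, so all ADP arrays were below all controls. The difference was -0.31 ± 0.10, or 1.24-fold lower with ADP, and was -0.30 and -0.37 within the slides. By limma the unadjusted p was 0.020 and the adjusted p 0.31 without a block; the adjusted p was 0.088 with the slide as a block and 0.031 with trended and robust variances added. These genes were the only members called in that last fit.

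Ndufaf3, which acts in assembly of the matrix arm, read 1.23, 1.1 and 1.78 on the controls and 0.97, 1.24 and 1.06 on the ADP arrays, with control 3 standing above the other controls. Its difference was -0.28 ± 0.20 without a block and -0.41 ± 0.13 with the slide as a block, where the unadjusted p by limma was 0.021 and the adjusted p 0.13. Without control 3 the latter difference was -0.20. Ndufaf4, a partner of Ndufaf3, read 2.04, 1.96 and 2.29 on the controls and 1.90, 2.05 and 2.00 on the ADP arrays, a difference of -0.18 ± 0.08 with the slide as a block. Ndufaf2, which acts late in assembly, read 2.00, 2.02 and 2.07 on the controls and 2.15, 1.96 and 2.09 on the ADP arrays, a difference of 0.04 ± 0.10. Atp5s, the coupling factor B gene itself, read -2.62, -2.48 and -2.02 on the controls and -2.31, -1.98 and -2.19 on the ADP arrays, overlapping, and its difference was 0.24 within slide 1 and -0.07 within slide 2. The 3 probes of Cox7a2l gave differences of -0.06 to -0.01.

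**Figure D5:**
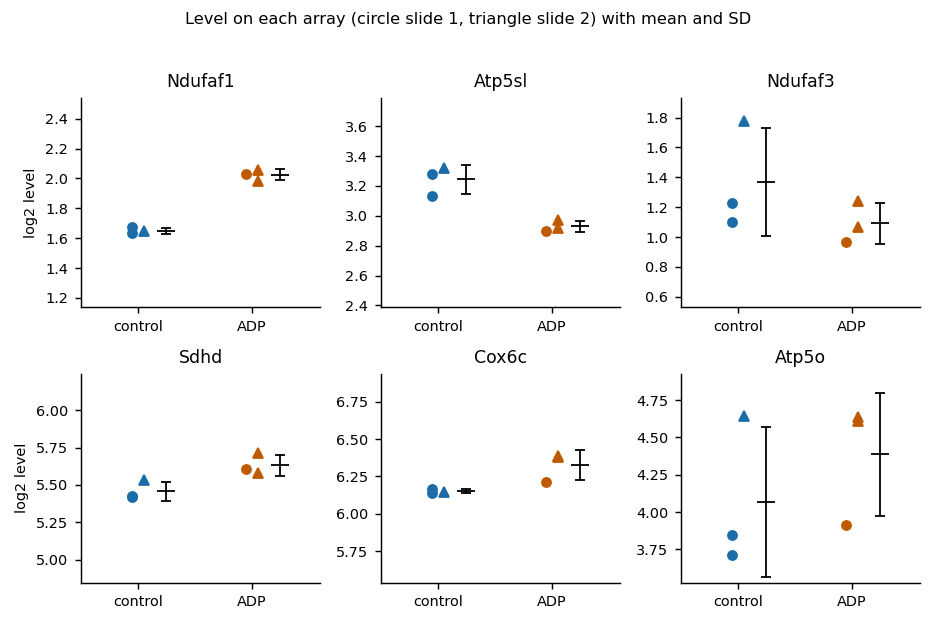
Log2 levels on the 6 arrays are shown for 3 assembly or accessory genes (top) and 3 structural subunits (bottom), with circles for slide 1, triangles for slide 2, and the mean with its SD beside each group of 3. Ndufaf1 and Atp5sl separate by group on both slides, by 0.37 to 0.38 and by -0.37 to -0.30, whereas the points of Atp5o separate by slide.

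Genes around the chain that the name rule leaves out were followed in lists. Subunits encoded by mitochondrial DNA complete complexes I, III, IV and V. Of 13, 12 were measured and none had an unadjusted p under 0.05 without a block (0%, against 12.7% of all features). Their median difference was 0.03, with 7 above 0. With the slide as a block 1 did, mt-Nd6 (8.33%, against 24.3% of all features), and the median difference was -0.04 with 3 of the 12 above 0. Those with the smallest p were mt-Nd2 (0.19 ± 0.13) and mt-Nd6 (0.27 ± 0.21) above control and mt-Nd5 (-0.16 ± 0.19) and mt-Nd4l (-0.13 ± 0.16) below it. The probe for mt-Co2, which was picked once its values were seen and encodes a catalytic subunit of complex IV, read 7.80, 7.88 and 8.67 on the controls and 7.79, 8.70 and 8.81 on the ADP arrays, a slide difference of 0.90 beside an ADP difference of 0.02 ± 0.08 with the slide as a block. That for mt-Nd6 went the other way with the slide, by -0.43; it read 0.90, 0.92 and 0.23 on the controls and 1.07, 0.94 and 0.86 on the ADP arrays, and control 3 alone was low. Its ADP difference with the slide as a block was 0.42 ± 0.13 (unadjusted p = 0.021 and adjusted p = 0.13 by limma), and was 0.16 within slide 1 and 0.67 within slide 2, the slide of control 3. No cause of these slide differences was tested. The probes for mt-Nd3, mt-Nd4l, mt-Co2, mt-Co3 and mt-Atp8 are placed by the array's design on chromosome 1 rather than on the mitochondrial chromosome.

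Among 38 measured assembly factors outside the name rule, the unadjusted p was under 0.05 for 2 that were higher and 1 that was lower (7.89%, against 12.7% of all features), and the median difference was -0.06. The slide block gave 2 higher and 5 lower (18.4%, against 24.3%). Ttc19, which clears fragments from complex III, read 0.84, 1.09 and 0.78 on the controls and 1.27, 1.28 and 1.34 on the ADP arrays, a difference of 0.39 ± 0.12. Sdhaf1, which inserts iron-sulphur clusters into Sdhb, read 1.99, 2.15 and 2.08 on the controls and 2.37, 2.31 and 2.52 on the ADP arrays, higher by 0.32 ± 0.11. Both genes had no overlap between groups. Coa4, a complex IV factor, read 2.08, 1.96 and 2.31 on the controls and 1.85, 1.77 and 1.78 on the ADP arrays, a difference of -0.31 ± 0.12. Bcs1l, which inserts the Rieske protein into complex III, differed by -0.35 ± 0.17. As above, no adjusted p was under 0.05 without a block.

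Among 17 measured genes for electron carriers and for nucleotide and phosphate exchange, 2 (11.8%, against 12.7% of all features) had an unadjusted p under 0.05 without a block, both above control. With the slide block there were 3 above and 2 below (29.4%, against 24.3%). Usmg5, an ATP synthase subunit outside the name rule, read 5.76, 5.83 and 5.97 on the controls and 6.07, 6.20 and 6.33 on the ADP arrays. It lay above control by 0.34 ± 0.12, by 0.27 and 0.29 within the slides, and had an adjusted p of 0.030 by limma with the slide block and trended and robust variances. Ak4, a mitochondrial matrix adenylate kinase, read -1.82, -1.75 and -2.18 on the controls and -0.67, -1.67 and -1.31 on the ADP arrays, a difference of 0.70 ± 0.27 without a block and 0.90 ± 0.15 with it. The members lower with the smallest p were Ucp3 (-0.25 ± 0.11), an uncoupling protein, and Slc25a4 (-0.16 ± 0.11), an ADP and ATP carrier.

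Of 10 measured dehydrogenases that deliver electrons to ubiquinone apart from complexes I and II, Gpd2 and Sqrdl had an unadjusted p under 0.05, both above control (20.0%, against 12.7%). The slide block added Prodh, below control (3 of 10, against 24.3%). Gpd2, the mitochondrial glycerol-3-phosphate dehydrogenase, read 0.72, 0.79 and 1.04 on the controls and 1.11, 1.43 and 1.45 on the ADP arrays, by 0.48 ± 0.15 without a block and 0.38 ± 0.07 with it. Sqrdl, which oxidises sulphide, read 4.51, 4.58 and 4.65 on the controls and 4.85, 4.91 and 4.88 on the ADP arrays, a difference of 0.30 ± 0.10. Both were apart from control on every array. In the opposite direction, Dhodh, which oxidises dihydroorotate, differed by -0.17 ± 0.12 and Acadl by -0.17 ± 0.13.

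The 18 genes of pyruvate dehydrogenase and the citric acid cycle had a median difference of -0.00, and the unadjusted p was under 0.05 for 2 of them, both below control, in either fit (11.1%, against 12.7% of all features without a block and 24.3% with it). Suclg2, a subunit of succinyl-CoA ligase, read 0.31, 0.27 and 0.24 on the controls and 0.12, -0.20 and -0.14 on the ADP arrays (-0.35 ± 0.12), and Idh2, the mitochondrial NADP-dependent isocitrate dehydrogenase, read 4.73, 4.55 and 4.73 and then 4.39, 4.51 and 4.23 (-0.29 ± 0.12). The genes above control with the smallest p were Pdhb (0.13 ± 0.10) and Mdh2 (0.12 ± 0.10).

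Among 19 measured regulators of nuclear mitochondrial genes and of mitochondrial DNA, the unadjusted p was under 0.05 for 1 above and 1 below control without a block (10.5%, against 12.7% of all features) and for 1 above and 5 below with the slide block (31.6%, against 24.3%). Hif1a, the hypoxia-inducible factor subunit, read 2.79, 3.09 and 2.40 on the controls and 3.61, 3.06 and 3.39 on the ADP arrays. Its difference was 0.59 ± 0.22 without a block, where control 2 lay above ADP 2, and 0.75 ± 0.14 with the slide as a block, with 0.67 and 0.82 within the slides. Polg2, the accessory subunit of the mitochondrial DNA polymerase, read -0.28, -0.35 and -0.37 on the controls and -0.48, -0.61 and -0.77 on the ADP arrays, a difference of -0.28 ± 0.11. Gabpb2, a subunit of the ETS factor GABP, differed by 0.35 ± 0.17 and Peo1, the mitochondrial helicase, by -0.25 ± 0.13. The other regulators below control under the slide block, picked once their values were seen, were Ppargc1b (-0.81 ± 0.16), a coactivator of nuclear receptors and NRF1, Tfb1m (-0.69 ± 0.17), which methylates mitochondrial ribosomal RNA, and Polg (-0.33 ± 0.09), the catalytic subunit of the mitochondrial DNA polymerase. Ppargc1b read -4.18, -4.07 and -3.05 on the controls and -4.97, -3.56 and -4.10 on the ADP arrays, overlapping, with the slide 2 arrays higher than the slide 1 arrays of the same group. Its signal was dim, close to that of Ndufa4l2 (-5.13 to -4.40), whose probe did not pass the filter.

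Cell type markers were read beside these results. Of the macrophage markers, Cd14 was higher (0.87) and Mertk and Itgam lower (-0.70 and -0.23) at an unadjusted p under 0.05 with the slide as a block, by limma. The summed linear signal of the 8 macrophage markers, relative to the 75th percentile, was 974 to 1331 in the controls and 1177 to 1605 with ADP. By slide, it was 974 to 1177 on slide 1 and 1331 to 1605 on slide 2. That of the 5 measured neutrophil and precursor markers was 22.5 to 24.4 in the controls and 26.1 to 31.7 with ADP. With the slide as a block, 2 of these 5 had an unadjusted p under 0.05 by limma, both higher (40%, against 24.3% of all features). Of the neutrophil markers, Ltf and Ngp were not well above background. Of the fibroblast and stromal markers, Pdgfra and Dcn had an unadjusted p under 0.05 with the slide as a block (0.53 and 0.46) and none did without it, and the 6 measured markers summed to 12.5 to 13.8 in the controls and 13.1 to 14.4 with ADP. The sum of the 3 measured dendritic cell markers was 36.8 to 44.9 on slide 1 and 139.7 to 158.9 on slide 2. The slide differences of these markers ran from -0.57 to 1.94, with a median of 0.00. For the slide, 1 of the 3 had an unadjusted p under 0.05 by limma (33.3%, against 38.2% of all features), and it was higher on slide 2. Zbtb46, Xcr1 and Clec9a were not well above background. Of the 3 measured, Ccr7 alone had an unadjusted p under 0.05 by limma with the slide as a block. It was higher with ADP by 1.19. Its adjusted p by limma was 0.037 with trended and robust variances added to the slide block, and 0.038 with normexp and the slide block. The part of these in the members' values was not tested, and fewer cells of a type and less RNA per cell cannot be told apart in such bulk samples.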

How the data were processed

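The 6 one-colour arrays were read with Agilent Feature Extraction 10.7.1.1, per the submitters' processing notes and the file headers; the deposited intensity is background-subtracted within the array and not scaled between arrays. A deposited value table holds the same signal as unscaled intensity: its values were within 0.001 log2 of the scanner files for 100% of probes, the columns of controls 1 to 3 have medians of 18.7, 20.3 and 22.0, those of ADP 1 to 3 have medians of 20.7, 21.9 and 22.7, and no other scaling or centring was found in it. Groups and replicate numbers came from the titles.

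Here, spots of a probe were averaged without control spots and flagged outliers, log2 signals were taken relative to each array's 75th percentile, and probes well above background on all 3 arrays of a group were kept (26587 of 55681). A gene was represented by its probe of highest mean. The test was the two-sided moderated test of limma 3.58.1 (R 4.3.3) over 19575 features, with Benjamini-Hochberg adjustment at 0.05. With 3 arrays a group, which limits precision, an exact permutation test could not go below p = 0.1. The fits were also run on simulated data, with planted differences larger than that of any member and noise set lower than estimated here. The simulation therefore gives no measure of how well differences of the members' size are found. Coordinates of probes are the files' own, on mm9, and RefSeq names and promoters are of GRCm38.p6.

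The values of 1 member are not reported here by name, although it is counted. The members and lists were chosen with earlier results of these data known. Named were, in each complex, up to 3 members of smallest p in each direction, non-overlapping members with an unadjusted p under 0.05, isoform sets, members whose probes differ in sign, and up to 2 genes of each list in each direction. The alternatives tried included normexp (offset 50), quantile normalization, median scaling, the unscaled table, other filters and probe rules, trended and robust variances, the replicate number or the slide as a block, differences within slides, and each array left out; combinations of the slide block with scaling, normexp, single probes or a left-out array were added after seeing the data.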

Additional observations from a re-analysis of the deposited data

How the results depend on the processing

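No member was called without a block or with the slide block alone. With the slide block, trended and robust variances called Ndufaf1 and Atp5sl, and normexp called Ndufaf1, in the same directions. The count of all features with an adjusted p under 0.05 was 0 in every setting except the slide block with trended and robust variances (1939) and the slide block with normexp background correction (1254, chosen after seeing the data); at an unadjusted p under 0.05 limma found 2492 features without a block. The count of members with an unadjusted p under 0.05 was 2 without a block (2.33%, against 12.7% of all features). It was 1 with median scaling (1.16%, against 10.2%) and 1 in the unscaled table (1.16%, against 7.94%). With the slide block it was 6 with trended and robust variances (6.98%, against 26.1%) and 4 with median scaling (4.65%, against 24.8%). With the slide block and each probe on its own, 4 of 122 member probes had such a p (3.28%, against 23.3% of all probes kept). Leaving out 1 array gave 1 to 7 members without a block (against 5.94% to 15.2% of all features). With the slide block it gave 2 to 3 (against 15.6% to 24.6%). Ndufaf1 was among them in each of these fits. The members' median difference, 0.11, was -0.018 with the slide block and median scaling, where that of all features was -0.08, and it ranged from 0.07 to 0.18 when 1 array was left out without a block and from 0.03 to 0.08 with it; its other values ran up to 0.19, in the unscaled table. The replicate number as a block left 2 members, the same genes, and a median of 0.11. These numbers pair no samples in the labels, and the correlations of deviations between same-numbered samples were 0.42, -0.40 and 0.43. Samples of a shared slide with unlike numbers gave 0.45 (control 2 with ADP 1) and 0.47 (control 3 with ADP 2). All pairs across the slides gave negative correlations. Of 40 named members, 23 had a difference whose sign turned in at least 1 setting, and so had 6 of 24 named genes of the other lists. Ndufaf1 ranged from 0.31 to 0.45 and Atp5sl from -0.41 to -0.24. With the slide block and trended and robust variances, Ttc19, Uqcc3, Usmg5, Ak4, Gpd2, Sqrdl, Hif1a, Tfb1m and Polg of the pathway lists also had an adjusted p under 0.05, as had Ak4, Gpd2 and Hif1a with normexp; the cause was not tested. With the slide as a block, intervals are wide for the dim members Cox4i2, Cox6b2 and Atp5s. They are also wide for the brighter Ndufv2 and Cyc1, with standard errors of 0.13 each, beside 0.12 for Cox4i2. Cox7b2, Cox8b, Cox8c and Ndufa4l2 have no level to compare.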

Other observations

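A probe of Ndufb2, a small membrane arm subunit of complex I, that does not represent its gene read 3.83, 3.87 and 3.91 on controls 1 to 3 and 4.08, 4.06 and 4.10 on ADP 1 to 3, without overlap. With the slide as a block its difference was 0.20 ± 0.07, against 0.09 ± 0.08 for the probe that represents Ndufb2. It was picked once its values were seen, and its unadjusted p by limma was 0.041.

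Values for other complex I core subunits that carry the electron path were close to control with the slide as a block. Ndufv1, which binds NADH, differed by 0.04 ± 0.08, Ndufs7 by 0.02 ± 0.09 and Ndufs8 by -0.03 ± 0.08. Among the catalytic parts of ATP synthase, Atp5b differed by 0.03 ± 0.07 and Atp5a1 by 0.02 ± 0.07. Cyc1, the cytochrome c1 of complex III, read 5.22, 5.16 and 5.85 on the controls and 5.31, 5.46 and 5.72 on the ADP arrays, and its difference was 0.12 within slide 1 and -0.26 within slide 2. The Rieske protein gene Uqcrfs1 differed by 0.03 ± 0.10.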
